A study of Mus musculus with 200 samples.

Results

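The Bend3 knockout epiblast of batch 8 was described in 6 libraries, 3 labelled Bend3 knockout and 3 wild-type controls of the same batch, of 148 libraries in a knockout screen and 200 in the series. They were chosen by their titles, which carry the gene, the batch and the number 6.0. The titles of the other screen batches carry 5.0, while the stage field of the labels gives E5.0 for all of them, so which stage batch 8 stands for cannot be told from the labels. The knockouts were made with C-CRISPR, in which several guide RNAs are directed at 1 gene, in mouse embryos that were cultured in vitro or dissected, and the epiblast (the layer that forms the embryo proper) was taken from them. Each library was amplified as full-length cDNA from about 10 to 100 cells, and the labels state 3 biological replicates per group without saying how many embryos each holds. Genes of the sex chromosomes were left out, so every count is of genes on chromosomes 1 to 19. Values are TPM, a transcript level scaled for transcript length and for the library total. Log2 changes are knockout over control on log2(TPM + 1), which understates the change of genes with low levels, and a gene passed where its Benjamini-Hochberg adjusted p in limma was under 0.05.

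Bend3 encodes a nuclear protein with BEN domains, which bind DNA. It is known for binding CpG-rich promoters, many of them bivalent, which carry the activating mark H3K4me3 and the repressive mark H3K27me3 together. It acts with Polycomb repressive complex 2 (PRC2), which writes H3K27me3, and with the NuRD deacetylase complex, and it is also known from heterochromatin and silent ribosomal DNA. In the epiblast around implantation, naive pluripotency genes are switched off, formative genes and the de novo DNA methyltransferases come on, and gastrulation genes follow.

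Bend3 itself (chr10:43478831-43515396 of GRCm38, plus strand) was lower in the knockout. It measured 10.2, 10.8 and 9.89 TPM in the 3 knockout libraries, against 43.3, 35.1 and 17.5 TPM in the 3 controls (log2 change -1.46, SE 0.39, adjusted p = 0.031). The groups did not overlap, but the transcript was not lost, and controls of the other 9 batches averaged 1.49 to 6.99 TPM. The call was lost in 5 of 6 fits without 1 library, with adjusted p of 0.11, 0.12 and 0.11 without knockout replicate 1, 2 or 3 and of 0.065 and 0.058 without control replicate 1 or 2. It was also lost with quantile normalization (log2 change -1.12, adjusted p = 0.074) and with no filter on low values (adjusted p = 0.052). TPM per gene does not show whether the remaining transcript carries the edit.

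The libraries were unequal in spread. Correlations of log2(TPM + 1) were 0.987 to 0.988 among the knockout libraries, 0.939 to 0.940 among the controls and 0.941 to 0.945 between the groups, against 0.866 to 0.994 in 47 other groups of the screen. The median SD of a gene on the log2 scale was 0.210 in the knockout and 0.439 in the control, and 10093 to 10232 genes reached 1 TPM in the knockout libraries, against 9131 to 9325 in the controls. The labels do not say whether libraries of a group share embryos, and the p-values measure only the spread between these libraries, which may be technical. Averaging the 3 knockout libraries into 1 left 0 genes past the threshold in limma, with 1293 at an unadjusted p under 0.05.

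The libraries of batch 8 carried epiblast markers. The 10 markers summed to 2489 to 2990 TPM in the knockout and 3136 to 3418 TPM in the controls, above the 356 to 1624 TPM of the 26 control libraries of the other batches. Of 20 markers of trophectoderm and extraembryonic ectoderm, the sum was 247 to 291 TPM in the knockout and 395 to 585 TPM in the controls, against 3187 to 8434 TPM in the other batches. Most of the sum in batch 8 was from the keratin genes Krt8 and Krt18. Cdx2 was listed at 0 in all 6 libraries of batch 8 and Elf5 reached at most 0.932 TPM. Endoderm markers summed to 371 to 388 TPM in the knockout and 399 to 655 TPM in the controls, and most of it was Apoe, at 362 ± 9.46 TPM in the knockout and 443 ± 131 TPM in the controls. Gata4, Gata6, Foxa2, Sox7, Hnf4a and Afp were at 0 in all 6 libraries. Blood markers summed to 3.25 to 3.86 TPM in the knockout and 6.20 to 35.2 TPM in the controls, and markers of decidua and stroma to 7.56 to 11.5 TPM in the knockout and 6.06 to 28.7 TPM in the controls. The epiblast label was thus borne out by its markers in this batch. In controls labelled epiblast in the other batches, the trophectoderm and extraembryonic ectoderm sum was higher. Which markers made up the sum there is not given here.

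**Figure D1:**
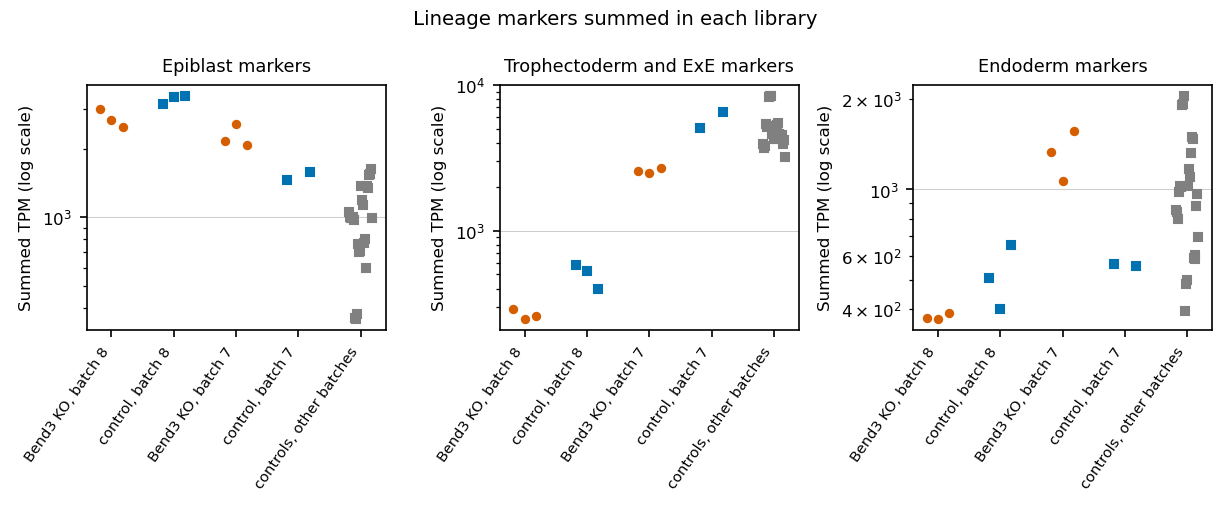
Summed TPM (log axis) of epiblast, trophectoderm with extraembryonic ectoderm (ExE), and endoderm markers, 1 point per library, for the knockout and control of batch 8, the knockout and control of batch 7 and the controls of the other 8 batches. The 6 libraries of batch 8 are high in epiblast markers and lie below all others in trophectoderm and ExE markers.

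Of 9677 autosomal genes tested in batch 8, 1933 passed (20.0%): 850 rose (8.78%) and 1083 fell (11.2%) in the knockout, and the median log2 change was 0.0026. Without knockout replicate 1, 2 or 3, the count was 891, 634 and 978. Without a control it was 2032 to 2240. In such bulk libraries, fewer cells of a kind and less RNA per cell cannot be told apart.

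Among the largest rises were secreted signals, lipid-handling proteins and a neuronal filament. Npy, which encodes neuropeptide Y, measured 45.7, 56.5 and 49.4 TPM in the knockout against 3.75, 0 and 0 TPM in the controls (chr6:49822710-49829507; log2 change 4.93, SE 0.64, adjusted p = 0.0017). Fgf8, a growth factor of the primitive streak, measured 118, 138 and 137 TPM in the knockout against 22.0, 5.16 and 7.47 TPM in the controls (log2 change 3.63, SE 0.44, adjusted p = 0.0014). Nefl, the light neurofilament chain, measured 79.6, 72.5 and 69.5 TPM in the knockout against 6.91, 4.41 and 2.00 TPM in the controls (log2 change 3.89, SE 0.40, adjusted p = 0.00087). The choice of the largest rises and falls required groups that do not overlap, and in these 3 genes the gap was wide. Fabp3, a fatty acid binding protein, measured 52.1, 50.0 and 59.8 TPM in the knockout against 1.65, 1.62 and 4.98 TPM in the controls (log2 change 3.98, SE 0.43, adjusted p = 0.00099). Controls of the other batches averaged 557 to 4472 TPM of Fabp3, so both groups of batch 8 lay below them. Crls1, the cardiolipin synthase, measured 30.9, 29.7 and 25.5 TPM in the knockout against 1.77, 1.5 and 1.16 TPM in the controls (log2 change 3.58, SE 0.41, adjusted p = 0.0011). Mgst1, a membrane-bound glutathione transferase, measured 21.8, 21.2 and 23.9 TPM in the knockout against 2.75, 0 and 0.0883 TPM in the controls (log2 change 3.86, SE 0.60, adjusted p = 0.0035). The knockout libraries were close together in both genes, and 1 control was at 0 for Mgst1.

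Mogat2, a monoacylglycerol acyltransferase, measured 106, 93.4 and 113 TPM in the knockout against 15.7, 29.1 and 0.298 TPM in the controls (log2 change 3.60, SE 0.96, adjusted p = 0.031), and it did not pass without any of the 3 knockout replicates (adjusted p up to 0.13). Tmem37, a membrane protein, measured 10.8, 21.2 and 20.2 TPM in the knockout against 0, 0 and 1.73 TPM in the controls (log2 change 3.66, SE 0.58, adjusted p = 0.0037). Rab21, a small GTPase of endosomes, measured 12.1, 8.80 and 9.94 TPM in the knockout against 0.152, 0 and 0 TPM in the controls (log2 change 3.42, SE 0.43, adjusted p = 0.0016). Of these 3 genes, Mogat2 had the widest control spread. Tmem17, a protein of the ciliary transition zone, was listed at 0 in all controls and measured 18.4, 10.3 and 15.8 TPM in the knockout (adjusted p = 0.0011). Plek2, a pleckstrin family protein, was likewise at 0 in all controls and measured 16.3, 9.79 and 6.80 TPM in the knockout (adjusted p = 0.0021). Snord47, a small nucleolar RNA, measured 103, 46.1 and 31.5 TPM in the knockout against 11.8, 0 and 1.52 TPM in the controls (log2 change 4.09, SE 0.87, adjusted p = 0.012), and did not pass without knockout replicate 1 or 2 (adjusted p up to 0.088). As a short RNA whose host gene overlaps it, its level from polyadenylated RNA is uncertain. The filter on low values needed 1 TPM in 3 libraries. Among these rises, only Fgf8, Nefl, Fabp3 and Crls1 reached 1 TPM in every control. The others entered the test through the knockout, so their p-values are a description.

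The largest falls included germline genes and a classical MHC class I gene. Sohlh2, a transcription factor of early germ cells, measured 1.47, 0.962 and 0.824 TPM in the knockout against 61.9, 76.2 and 77.1 TPM in the controls (chr3:55182028-55209957; log2 change -5.13, SE 0.37, adjusted p = 0.00015). Dazl, a germ cell RNA-binding protein, measured 2.69, 1.20 and 0.912 TPM in the knockout against 55.5, 52.3 and 71.6 TPM in the controls (log2 change -4.59, SE 0.42, adjusted p = 0.00049). Stra8, which acts at meiotic entry, was listed at 0 in every knockout library and measured 5.24, 28.4 and 18.1 TPM in the controls (adjusted p = 0.0037). Morc1, which silences transposons in the male germline, measured 1.30, 0.408 and 0.211 TPM in the knockout against 38.4, 26.4 and 20.2 TPM in the controls (log2 change -4.17, SE 0.50, adjusted p = 0.0013). That all 4 germline genes were lower in every knockout library than in each control follows from how the genes were chosen. H2-D1, which presents peptides to T cells, measured 5.66, 4.52 and 2.87 TPM in the knockout against 107, 122 and 126 TPM in the controls (chr17:35262730-35267499; log2 change -4.51, SE 0.31, adjusted p = 0.00012). Class I genes are closely related, so the counting could have split reads between them.

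Fgf4, the growth factor that epiblast cells send to neighbouring lineages, measured 3.35, 4.63 and 3.32 TPM in the knockout against 70.2, 58.7 and 34.6 TPM in the controls (log2 change -3.50, SE 0.39, adjusted p = 0.001). Nsg1, an endosomal protein of neurons, measured 1.80, 3.07 and 2.32 TPM in the knockout against 48.3, 83.2 and 93.8 TPM in the controls (log2 change -4.45, SE 0.39, adjusted p = 0.00043). Rbp4, the retinol carrier and an endoderm marker, measured 1.13, 0.671 and 4.62 TPM in the knockout against 78.6, 53.1 and 40.9 TPM in the controls (log2 change -4.38, SE 0.54, adjusted p = 0.0014). None of these groups overlapped, as the choice required. Rbp4 was the 1 endoderm marker of 6 tested that fell, beside 11.2% lower of all genes tested. Lat, an adaptor of T cell receptor signalling, measured 0.679, 0.831 and 1.00 TPM in the knockout against 59.5, 19.1 and 28.1 TPM in the controls (log2 change -4.16, SE 0.52, adjusted p = 0.0015). Ssbp4, a single-stranded DNA binding protein, measured 5.00, 5.58 and 5.73 TPM in the knockout against 77.9, 122 and 64.8 TPM in the controls (log2 change -3.74, SE 0.32, adjusted p = 0.00042). Ccdc106 measured 2.40, 3.49 and 2.72 TPM in the knockout against 46.1, 35.4 and 47.2 TPM in the controls (log2 change -3.50, SE 0.37, adjusted p = 0.00092). Trim12a, of the tripartite motif family, was listed at 0 in the knockout and measured 30.3, 12.6 and 18.8 TPM in the controls (adjusted p = 0.0011); it has near-identical Trim family copies, which makes its level uncertain. All 12 falls kept their call without any 1 library. Only H2-D1, Fgf4, Nsg1, Ssbp4 and Ccdc106 reached 1 TPM in every knockout library. The other falls entered the test through the controls, so their p-values are a description.

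Set beside the mean of the controls in each of the other 9 batches, the falls and rises differed in which group of batch 8 stood apart. The genes were chosen for a large difference between the groups of batch 8. That choice partly sets where each group lies, so the counts are a description. For 11 of the 12 falls the batch 8 controls were above every other batch's controls, while the knockout lay within their range for 7 and below it for 5. For the 12 rises, the knockout was above the range for 6, within it for 4 and below it for 2, and the batch 8 controls were below it for 6. Dazl, for instance, averaged 2.63 to 11.3 TPM and Sohlh2 0.0562 to 6.61 TPM in the other batches' controls. Those controls had a higher sum of trophectoderm and extraembryonic ectoderm markers. The part of that difference in these values was not tested.

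**Figure D2:**
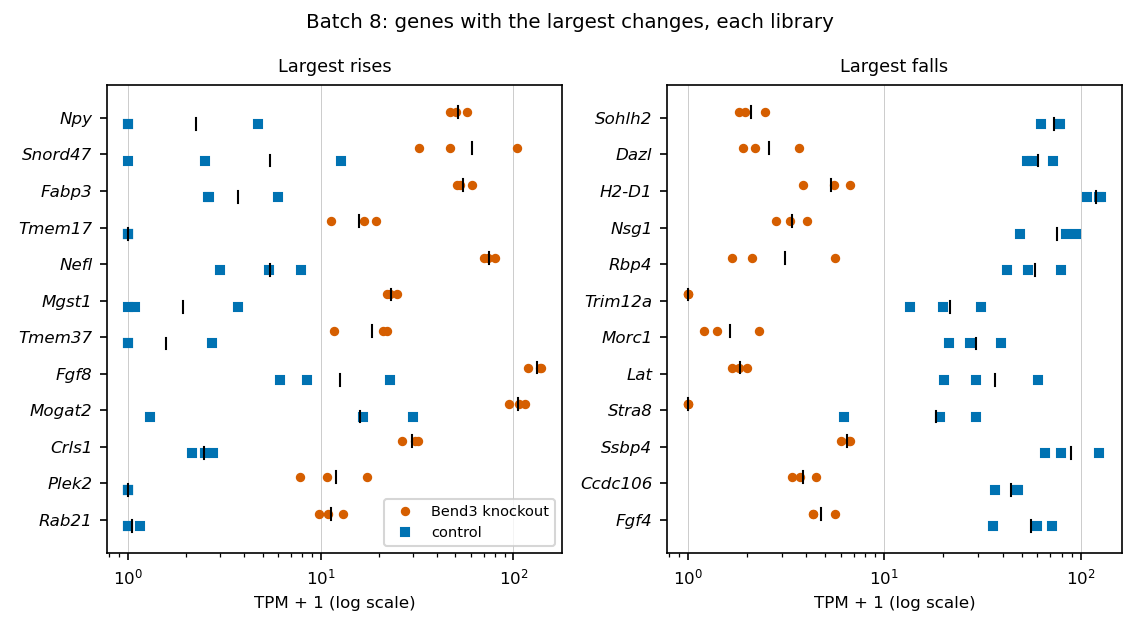
TPM + 1 (log axis) of the 12 largest rises and 12 largest falls in batch 8, with knockout libraries as circles, control libraries as squares and group means as vertical ticks (n = 3 each). The groups do not overlap in any of these genes, since the choice required it, and the falls bring the knockout close to 0 for most genes.

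Promoter letters were read for the rises and for Bend3, because a BEN domain of Bend3 is known to bind CCCACGC. RefSeq promoters of GRCm38.p6, 250 bases before to 50 after a gene's start, matched 8 of the 12 largest rises and 10 of the 12 largest falls. The letters CCCACGC, or GCGTGGG on the other strand, were in 1 of these 8 and 1 of these 10. The rise was Plek2 (chr12:78906889-78907188, minus strand), with the letters beginning 163 bases before the start. Bend3 held them at 1 of its 2 listed starts, the downstream one (chr10:43492915-43493214, plus strand), 42 bases before it. Both are printed 5′ to 3′ with the letters in capitals.
Plek2: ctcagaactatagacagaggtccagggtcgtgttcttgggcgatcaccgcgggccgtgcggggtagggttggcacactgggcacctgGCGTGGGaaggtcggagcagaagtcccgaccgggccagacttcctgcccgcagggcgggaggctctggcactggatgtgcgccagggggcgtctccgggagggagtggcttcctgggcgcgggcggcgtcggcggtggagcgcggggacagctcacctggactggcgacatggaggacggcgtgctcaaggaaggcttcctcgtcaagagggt
Bend3: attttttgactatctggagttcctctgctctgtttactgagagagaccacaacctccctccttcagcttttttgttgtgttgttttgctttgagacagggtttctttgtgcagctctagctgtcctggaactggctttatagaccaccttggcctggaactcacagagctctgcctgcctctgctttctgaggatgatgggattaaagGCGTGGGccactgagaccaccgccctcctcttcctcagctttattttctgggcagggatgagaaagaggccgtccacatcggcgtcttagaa
The share with these letters was lower among rises than among all genes tested, a difference that was not tested. Of genes with a promoter in the table, 7.41% of the 661 that rose and 11.3% of the 888 that fell held them at 1 or more starts, against 9.72% of the 7709 tested and 5.81% of all 25748. A match describes the letters only, and no binding was measured here.

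Pluripotency genes moved in both directions, with Nanog and Tdgf1 higher and Fgf4 and the Dppa genes lower in the knockout. Of 8 naive genes tested, 1 rose and 3 fell, and of 13 core genes 3 rose and 5 fell, beside 8.78% higher and 11.2% lower of all genes tested. Nanog, a transcription factor of pluripotency, measured 110.0, 93.6 and 77.2 TPM in the knockout against 29.9, 44.9 and 27.4 TPM in the controls (log2 change 1.45, SE 0.25, adjusted p = 0.0055). Tdgf1, the Nodal co-receptor Cripto, measured 1235, 965 and 748 TPM in the knockout against 306, 355 and 287 TPM in the controls (log2 change 1.61, SE 0.18, adjusted p = 0.001). Every knockout library exceeded every control for both. Sall4, a zinc finger factor of the core network, averaged 133 ± 14.2 TPM in the knockout and 62.6 ± 20.9 TPM in the controls, and L1td1, an RNA-binding protein, 50.6 ± 7.70 TPM in the knockout and 19.2 ± 1.69 TPM in the controls (SD, n = 3 each; log2 changes 1.12 and 1.34). Neither passed without knockout replicate 1 or 2 (adjusted p up to 0.085 and 0.069).

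Pou5f1 (Oct4), the central pluripotency factor, measured 358, 301 and 325 TPM in the knockout against 443, 586 and 564 TPM in the controls (log2 change -0.69, SE 0.14, adjusted p = 0.011). Dppa2 and Dppa4 encode partners that keep bivalent promoters free of DNA methylation in mouse embryonic stem cells. Dppa2 measured 9.51, 9.76 and 9.19 TPM in the knockout against 57.9, 44.6 and 68.0 TPM in the controls (log2 change -2.44, SE 0.29, adjusted p = 0.0012). Dppa4 measured 36.7, 38.9 and 39.3 TPM in the knockout against 146, 148 and 149 TPM in the controls (log2 change -1.92, SE 0.16, adjusted p = 0.00042). Both were tight within each group and far apart between groups. Dppa5a averaged 898 ± 128 TPM in the knockout and 2149 ± 352 TPM in the controls (SD, n = 3 each; log2 change -1.25, adjusted p = 0.0012), and Utf1, a chromatin factor of stem cells, 749.5 ± 61.1 TPM in the knockout and 1462 ± 103 TPM in the controls (log2 change -0.96, adjusted p = 0.001). The remaining calls were Tdh, threonine dehydrogenase, at 46.7 ± 1.85 TPM in the knockout and 83.2 ± 9.38 TPM in the controls, and Epcam, an adhesion protein, at 622 ± 15 TPM in the knockout and 902 ± 94.8 TPM in the controls. Without knockout replicate 2 the adjusted p was 0.074 for Pou5f1, 0.067 for Epcam and 0.091 for Tdh, which also did not pass without knockout replicate 1 or 3, and the core list gave 1 rise and 3 falls; the naive list gave 1 and 2 without any of the 3 knockout replicates.

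Among formative genes more fell than rose, and the de novo DNA methyltransferases fell. Of 20 formative and primed genes tested, 2 rose and 7 fell (median log2 change -0.71), and of 9 genes for DNA methylation 4 fell and 0 rose (median -0.99). Over all genes tested, 8.78% rose and 11.2% fell. Dnmt3b, a de novo methyltransferase, measured 332, 315 and 321 TPM in the knockout against 656, 624 and 639.9 TPM in the controls (log2 change -0.99, SE 0.10, adjusted p = 0.00087). Dnmt3a, the other de novo enzyme, measured 29.9, 26.6 and 31.3 TPM in the knockout against 71.0, 58.1 and 80.2 TPM in the controls (log2 change -1.22, SE 0.22, adjusted p = 0.0067). Dnmt3l, their cofactor without catalytic activity, measured 13.6, 10.6 and 17.1 TPM in the knockout against 60.9, 66.1 and 84.2 TPM in the controls (log2 change -2.28, SE 0.28, adjusted p = 0.0014). All 3 were lower in each knockout library. Uhrf1, which brings Dnmt1 to replicated DNA, averaged 47.3 ± 1.16 TPM in the knockout and 132 ± 25.7 TPM in the controls (SD, n = 3 each; log2 change -1.45, adjusted p = 0.0018). Dnmt3a had an adjusted p of 0.051 without knockout replicate 2.

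Fgf5, a growth factor that marks the formative epiblast, went the other way. It measured 117, 101 and 85.1 TPM in the knockout against 54.6, 55.7 and 58.7 TPM in the controls (log2 change 0.82, SE 0.19, adjusted p = 0.016), and Car14, a carbonic anhydrase, averaged 343 ± 32.5 TPM in the knockout and 215 ± 39.2 TPM in the controls (log2 change 0.68, adjusted p = 0.018). Pou3f1 (Oct6) averaged 15.4 ± 1.23 TPM in the knockout and 39.0 ± 7.34 TPM in the controls, Etv5, an ERK-responsive factor, 31.9 ± 3.11 TPM in the knockout and 74.4 ± 9.43 TPM in the controls, and Tcf15 17.3 ± 6.62 TPM in the knockout and 47.0 ± 9.0 TPM in the controls (SD, n = 3 each; log2 changes -1.27, -1.19 and -1.43). Otx2, a formative transcription factor, averaged 119 ± 13.1 TPM in the knockout and 180.3 ± 39.2 TPM in the controls and did not pass (adjusted p = 0.066). Fgf5, Car14, Pou3f1 and Tcf15 did not pass without knockout replicate 1 or 2 (adjusted p up to 0.091, 0.089, 0.082 and 0.09). Fewer calls of this list were left without a knockout library, as over all genes. Without knockout replicate 1, 2 or 3, 0, 0 and 1 genes of the list rose and 4, 2 and 4 fell. The 4 falls among DNA methylation genes were 4, 3 and 4 in those fits.

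The gastrulation genes that passed were all higher in the knockout. Of 26 autosomal members 10 passed the filter on low values, and 7 of these rose while 0 fell (median log2 change 2.2). Over all genes tested, 8.78% rose and 11.2% fell. The filter needs 1 TPM in 3 libraries. Of the rises, only Fgf8 reached 1 TPM in all controls, so the others entered through the knockout, and the count is a description. Eomes, a T-box factor of the primitive streak and of trophoblast, measured 28.6, 25.0 and 19.4 TPM in the knockout against 0.540, 4.90 and 0.698 TPM in the controls (log2 change 3.33, SE 0.60, adjusted p = 0.0061). Wnt8a, a Wnt ligand of the streak, measured 6.97, 3.76 and 5.25 TPM in the knockout and was listed at 0 in all controls (adjusted p = 0.004). Fgf17, a relative of Fgf8, measured 5.17, 7.44 and 8.01 TPM in the knockout against 0, 1.86 and 0 TPM in the controls (log2 change 2.45, SE 0.55, adjusted p = 0.015). These genes, with Fgf8, had no overlap between the groups. Gsc, a homeobox factor of the organizer, measured 2.81, 3.04 and 3.27 TPM in the knockout and was listed at 0 in all controls (adjusted p = 0.0072). Mixl1, a mesendoderm homeobox factor, measured 3.06, 1.78 and 2.40 TPM in the knockout and was also at 0 in all controls (adjusted p = 0.013). Msx2 measured 3.08, 3.74 and 3.59 TPM in the knockout against 0, 0 and 1.52 TPM in the controls (log2 change 1.71, SE 0.50, adjusted p = 0.041). The levels of these last genes were a few TPM. Without knockout replicate 1, 2 or 3, 4, 4 and 5 of the list rose. Eomes and Fgf17 had adjusted p of up to 0.054 and 0.082 without a knockout library, and Msx2 of up to 0.15 without a knockout library or control replicate 1 or 2.

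Eomes also marks trophectoderm, and the other markers of that lineage did not share one direction. Krt7 measured 8.14, 3.86 and 6.27 TPM in the knockout and was listed at 0 in all controls, while Krt8 measured 38.1, 35.2 and 36.5 TPM in the knockout against 96.4, 111 and 82.0 TPM in the controls (log2 change -1.36, adjusted p = 0.0027). Krt18, its keratin partner, measured 134, 119 and 147 TPM in the knockout against 413, 325 and 242 TPM in the controls (log2 change -1.26, adjusted p = 0.004), and Ascl2, an imprinted trophoblast factor, 2.32, 0.482 and 2.71 TPM in the knockout against 26.5, 18.7 and 34.5 TPM in the controls (log2 change -3.35, adjusted p = 0.0035). Of 8 such markers tested, 2 rose and 3 fell, with 1 rise without knockout replicate 1 or 2, beside 8.78% higher and 11.2% lower of all genes. Both rises, Eomes and Krt7, entered the test through the knockout. Of 14 genes of Nodal and TGF-beta signalling tested, Tdgf1 rose and 0 fell.

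**Figure D3:**
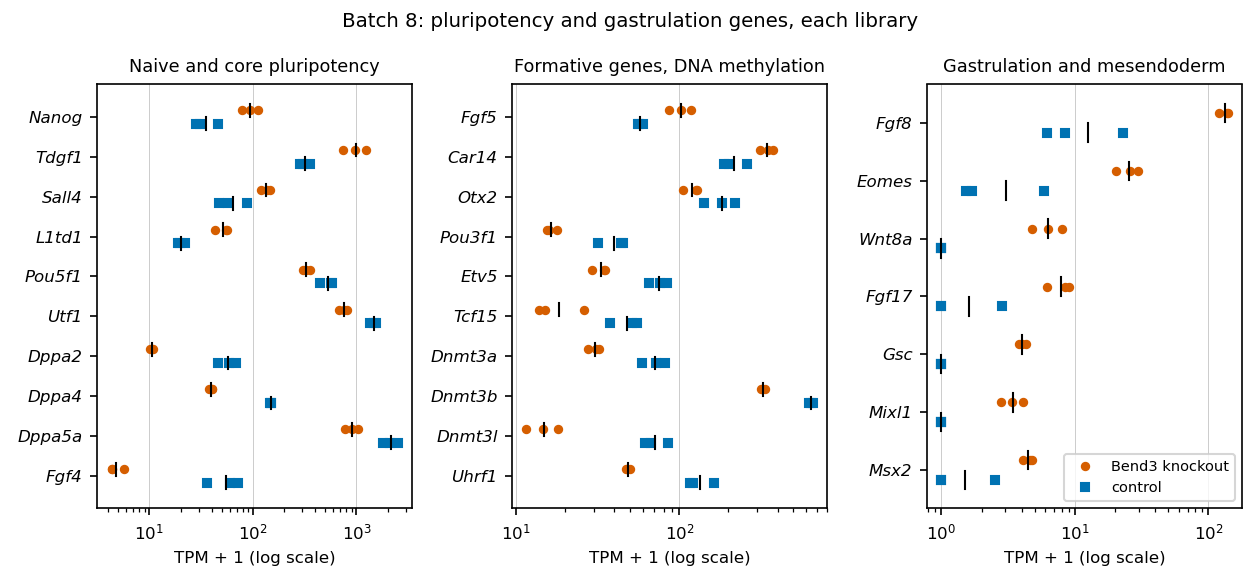
TPM + 1 (log axis) of pluripotency, formative, DNA methylation and gastrulation genes in batch 8, with knockout libraries as circles, control libraries as squares and group means as vertical ticks (n = 3 each). Nanog, Tdgf1 and the gastrulation genes are higher in the knockout, and Fgf4, the Dppa genes and the DNA methyltransferases are lower.

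Genes of the complexes that Bend3 works with were mixed, and PRC2 had no call. Of 10 PRC2 subunit genes tested, 0 passed in limma, while 1 higher and 2 lower had an unadjusted p under 0.05. The smallest p belonged to Rbbp4, a histone chaperone subunit, at 81.6 ± 13.3 TPM in the knockout and 119.9 ± 8.89 TPM in the controls (log2 change -0.56, adjusted p = 0.06). Ezh2, the PRC2 methyltransferase, averaged 50.6 ± 12.2 TPM in the knockout and 77.9 ± 14.8 TPM in the controls (log2 change -0.62, adjusted p = 0.11). Of 12 NuRD genes 1 rose and 4 fell, beside 8.78% higher and 11.2% lower of all genes tested. Mta2, a scaffold of NuRD, measured 45.3, 48.9 and 48.2 TPM in the knockout against 173, 157 and 107 TPM in the controls (log2 change -1.57, SE 0.21, adjusted p = 0.002), and Mbd3, the subunit that defines one NuRD form, averaged 104 ± 12 TPM in the knockout and 216 ± 19.5 TPM in the controls (log2 change -1.05, adjusted p = 0.0028). Cdk2ap1, a small NuRD subunit, went up, at 258, 250.5 and 283 TPM in the knockout against 41.2, 30.9 and 59.1 TPM in the controls (log2 change 2.61, SE 0.23, adjusted p = 0.00045). Mta3 averaged 20.4 ± 7.44 TPM in the knockout and 55.7 ± 13.0 TPM in the controls, and Hdac1, a deacetylase, 291 ± 12.3 TPM in the knockout and 474 ± 57.6 TPM in the controls. Without knockout replicate 2, the NuRD falls numbered 2, with adjusted p of 0.066 for Mta3 and 0.053 for Hdac1, and Mta3 did not pass without knockout replicate 1 either.

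Of 14 PRC1 genes, 1 rose and 4 fell, beside 8.78% higher and 11.2% lower of all genes tested. Phc1, a Polyhomeotic subunit, measured 29.6, 29.5 and 27.7 TPM in the knockout against 107, 90.8 and 86.8 TPM in the controls (log2 change -1.67, SE 0.20, adjusted p = 0.0012). Cbx7, which reads H3K27me3 in stem cells, measured 7.27, 4.97 and 7.37 TPM in the knockout against 35.0, 41.2 and 25.7 TPM in the controls (log2 change -2.2, SE 0.36, adjusted p = 0.0043). Kdm2b, which brings a PRC1 form to CpG islands, averaged 8.26 ± 1.82 TPM in the knockout and 31.5 ± 3.81 TPM in the controls (log2 change -1.82, adjusted p = 0.0071), and Phc2 measured 3.12, 4.31 and 5.87 TPM in the knockout and was at 0 in all controls. Thus 1 Polyhomeotic gene was lower and another higher, though Phc2 entered the test through the knockout only.

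Of 14 genes for H3K4 methylation, 1 rose and 3 fell, beside 8.78% higher and 11.2% lower of all genes tested. Men1, the menin subunit of MLL complexes, measured 15.1, 15.5 and 11.3 TPM in the knockout against 84.2, 94.8 and 74.6 TPM in the controls (log2 change -2.52, SE 0.25, adjusted p = 0.00075). Cxxc1, which brings the Set1 complex to CpG islands, averaged 20.0 ± 4.42 TPM in the knockout and 60.5 ± 14.5 TPM in the controls (log2 change -1.54, adjusted p = 0.0073), and Ash2l, a core subunit, 79.2 ± 8.60 TPM in the knockout and 170.1 ± 14.9 TPM in the controls (log2 change -1.09, adjusted p = 0.0029). Dpy30, another core subunit, was higher, at 798 ± 92.1 TPM in the knockout and 496 ± 34.1 TPM in the controls (SD, n = 3 each; log2 change 0.68, adjusted p = 0.006), though not past the threshold without knockout replicate 2 (adjusted p = 0.052). Of 20 genes of heterochromatin and ribosomal DNA silencing, 2 rose and 7 fell, beside the same shares over all genes. Daxx, a chaperone of histone H3.3, averaged 30.3 ± 4.89 TPM in the knockout and 114 ± 25.0 TPM in the controls (log2 change -1.86, adjusted p = 0.0016), and Chaf1a, a histone chaperone of replicating DNA, 13.2 ± 2.37 TPM in the knockout and 51.4 ± 12.4 TPM in the controls (log2 change -1.87, adjusted p = 0.0041). Those falls were 6, 3 and 4 and the rises 1, 0 and 1 without knockout replicate 1, 2 or 3, and 1 rose without control replicate 1 or 3. Of the BEN domain family, Bend3 was the 1 gene of 5 tested that passed, a call lost without any of the 3 knockout replicates.

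The listed developmental Polycomb targets were mostly at or near 0 TPM in both groups. That list holds none of the gastrulation genes that rose, so it does not speak for them. Of 54 such genes outside the Hox clusters and of 39 Hox genes, 0 passed the filter on low values, so none was tested. In the first list 22 genes were at 0 in all 6 libraries, while 4 reached 1 TPM in any knockout library and 7 in any control. Among Hox genes 30 were at 0 in all libraries and the highest value was 14.8 TPM, of Hoxd1 in a control. Without a depth, the level below which a transcript would be missed is unknown.

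The germline genes that passed were all lower in the knockout. Of 29 autosomal members 17 were tested, 9 fell and 0 rose (median log2 change -1.54), beside 11.2% lower and 8.78% higher of all genes tested. Of the 17, 3 reached 1 TPM in all controls and in no knockout library. Dazl reached it in all controls but not in all knockout libraries. At least these entered through the controls, and all of them were among the falls. The count is a description. Besides Dazl and Stra8, Fkbp6, a co-chaperone of the piRNA pathway, measured 15.2, 8.57 and 16.6 TPM in the knockout against 125, 88.4 and 155 TPM in the controls (log2 change -3.11, SE 0.32, adjusted p = 0.00085). Slc25a31, an ADP/ATP carrier of germ cells, measured 6.67, 2.85 and 3.38 TPM in the knockout against 36.7, 35.2 and 25.7 TPM in the controls (log2 change -2.71, SE 0.42, adjusted p = 0.0034). Mael, a piRNA factor, measured 6.70, 11.1 and 5.39 TPM in the knockout against 85.7, 23.9 and 36.3 TPM in the controls, with a wide control spread (log2 change -2.36, SE 0.50, adjusted p = 0.012). Hormad1, Dmrt1, Smc1b and Dnd1 were the other falls, with log2 changes of -1.94, -2.27, -2.24 and -1.54. Mael, Hormad1, Dmrt1, Smc1b and Dnd1 lost their calls without at least 2 of the knockout replicates, and Dnd1 also without control replicate 2 or 3 (adjusted p up to 0.065, 0.072, 0.13, 0.09 and 0.16). Without knockout replicate 1, 2 or 3, 5, 5 and 4 genes fell, and without a control 8 to 11, with 1 rise without control replicate 3. Of 20 imprinted genes, 2 rose and 4 fell, beside the same shares over all genes. Their counts were 0, 0 and 2 rises and 3 falls each without knockout replicate 1, 2 or 3. Impact averaged 27.1 ± 7.17 TPM in the knockout and 4.47 ± 2.74 TPM in the controls, with an adjusted p of up to 0.074 without knockout replicate 1 or 2, and Slc38a4, a placental amino acid carrier, 10.5 ± 2.2 TPM in the knockout and 40.1 ± 10.1 TPM in the controls.

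More glycolysis genes fell than rose, in numbers that changed little with the libraries used. Of 18 tested, 10 fell and 1 rose (median log2 change -0.62), and 9 to 11 fell when any 1 library was left out. Over all genes tested, 11.2% fell and 8.78% rose. Slc16a3, the lactate exporter MCT4, measured 76.5, 57.9 and 58.7 TPM in the knockout against 321, 393 and 458 TPM in the controls (log2 change -2.58, SE 0.18, adjusted p = 0.00014). Pfkp, a phosphofructokinase, measured 7.24, 8.5 and 7.39 TPM in the knockout against 39.5, 25.7 and 67.7 TPM in the controls (log2 change -2.27, SE 0.40, adjusted p = 0.0057). Slc2a1, the glucose importer GLUT1, measured 381, 384 and 379.7 TPM in the knockout against 1073, 820.0 and 978 TPM in the controls (log2 change -1.32, SE 0.12, adjusted p = 0.00053). Each of the 3 was lower in every knockout library. Pkm, pyruvate kinase, averaged 2551 ± 65.1 TPM in the knockout and 5859 ± 357 TPM in the controls (log2 change -1.20, adjusted p = 0.00012), Gpi1, glucose phosphate isomerase, 254 ± 3.34 TPM in the knockout and 623 ± 90.5 TPM in the controls (log2 change -1.28, adjusted p = 0.00087), and Ldha, lactate dehydrogenase, 6632 ± 168 TPM in the knockout and 8613 ± 422 TPM in the controls (log2 change -0.38, adjusted p = 0.0094; SD, n = 3 each). The rise was Bnip3, a hypoxia-induced mitophagy receptor, at 232 ± 62.0 TPM in the knockout and 141 ± 2.37 TPM in the controls, and it passed in 1 of 6 fits without a library (adjusted p up to 0.21). Ldha had an adjusted p of 0.084 without knockout replicate 2.

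Among genes that ATF4 controls, more fell than rose. Of 19 ATF4 and amino acid stress genes tested, 7 fell and 1 rose, with 5, 3 and 4 falls without knockout replicate 1, 2 or 3. Over all genes tested, 11.2% fell and 8.78% rose. Shmt2, the mitochondrial serine hydroxymethyltransferase, measured 52.2, 63.7 and 59.6 TPM in the knockout against 468, 395 and 416 TPM in the controls (log2 change -2.85, SE 0.15, adjusted p = 3.8e-05). Aars, the alanyl-tRNA synthetase, measured 38.3, 32.3 and 33.8 TPM in the knockout against 102, 164 and 156 TPM in the controls (log2 change -1.96, SE 0.23, adjusted p = 0.0011). Cebpb, a basic leucine zipper factor, rose, at 6.34, 8.60 and 7.72 TPM in the knockout against 0.361, 0 and 0 TPM in the controls (log2 change 2.94, SE 0.43, adjusted p = 0.0029). This rise entered the test through the knockout only, and 1 of the falls through the controls only. Atf4 itself averaged 175 ± 4.40 TPM in the knockout and 244 ± 21.2 TPM in the controls (log2 change -0.48, adjusted p = 0.034) and passed in 1 of 6 fits without a library (adjusted p up to 0.12).

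Ribosome biogenesis and mitosis genes were split, while more genes of the p53 list fell than rose. Of 30 genes of RNA polymerase I and ribosome biogenesis, 5 rose and 7 fell, beside 8.78% higher and 11.2% lower of all genes tested. Without knockout replicate 1, 2 or 3, 1, 1 and 3 of them rose and 5, 4 and 5 fell, and without control replicate 1 or 2, 2 and 3 rose. Nop2, an rRNA methyltransferase, averaged 149 ± 17.8 TPM in the knockout and 434 ± 12.5 TPM in the controls (log2 change -1.54, adjusted p = 0.00042), while Nop10, a small H/ACA subunit, averaged 858 ± 76.0 TPM in the knockout and 369 ± 102 TPM in the controls (log2 change 1.24, adjusted p = 0.0028). Of 23 genes of the p53 list, which includes Trp53, 1 rose and 7 fell. Trp53 averaged 478 ± 11.6 TPM in the knockout and 794 ± 84.6 TPM in the controls (log2 change -0.73, adjusted p = 0.0035), Phlda3, an Akt inhibitor, 28.2 ± 4.54 TPM in the knockout and 110.5 ± 27.8 TPM in the controls (log2 change -1.92, adjusted p = 0.0016), and Pmaip1 (Noxa) was higher, at 90.4 ± 18.8 TPM in the knockout and 26.7 ± 13.6 TPM in the controls (log2 change 1.82, adjusted p = 0.0098). Without knockout replicate 1, 2 or 3, the p53 falls were 4, 2 and 5, and Pmaip1 did not pass without knockout replicate 1 or 2 (adjusted p up to 0.067). Cdkn1a (p21) was the 1 call among 5 CDK inhibitors tested, at 14.6 ± 0.878 TPM in the knockout and 30.8 ± 5.20 TPM in the controls, and did not pass without a knockout replicate or control replicate 2 (adjusted p up to 0.16). Of 20 mitosis genes, 2 rose and 4 fell, beside the same 8.78% and 11.2% over all genes, with 1 rise and 3, 2 and 3 falls without knockout replicate 1, 2 or 3. Birc5 (survivin) averaged 685 ± 31.1 TPM in the knockout and 388 ± 21.9 TPM in the controls, and Kif20a, a kinesin of cytokinesis, 91.7 ± 3.28 TPM in the knockout and 219 ± 40.6 TPM in the controls. Of 16 immediate early and heat shock genes, 1 rose and 4 fell, or 0 and 2 without knockout replicate 2 and 0 and 3 without replicate 1. The rise, Fos, entered the test through the knockout. Fos, induced by growth signals, measured 15.3, 12.1 and 16.2 TPM in the knockout against 3.44, 0.484 and 0 TPM in the controls (log2 change 3.04, adjusted p = 0.01; up to 0.065 without a knockout replicate), and Hspb1, a small heat shock protein, 56.6, 68.8 and 75.4 TPM in the knockout against 276, 256 and 272 TPM in the controls (log2 change -1.99, adjusted p = 0.00027).

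**Figure D4:**
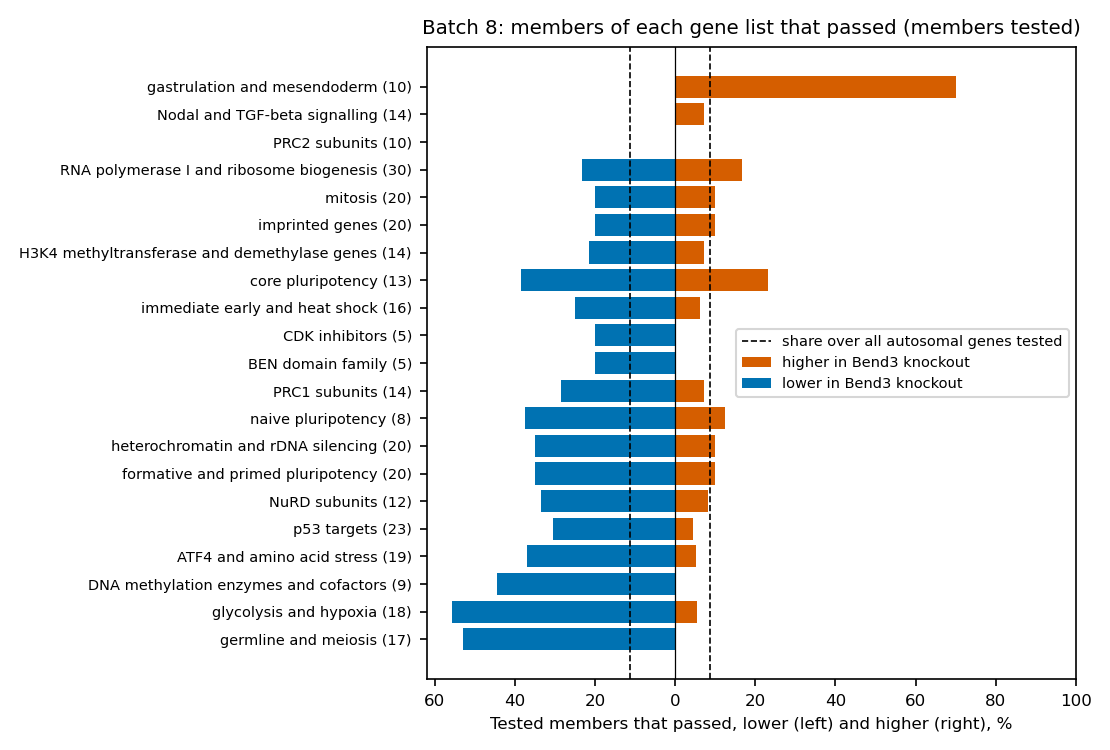
Share of the tested members that passed in batch 8, for the gene lists with 5 or more members tested and without the cell source markers, higher in the knockout to the right and lower to the left, with the number tested in brackets and dashed lines at the shares over all autosomal genes (8.78% higher, 11.2% lower). Gastrulation genes stand out to the right, though all of their rises but Fgf8 entered the test through the knockout. Germline, glycolysis and DNA methylation genes reach farthest to the left among the lists drawn.

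Bend3 was also targeted in batch 7, and few genes passed in a fit of that set's own libraries. The 3 libraries labelled Bend3 knockout measured 7.99, 7.03 and 22.3 TPM of Bend3, against 5.69 and 4.05 TPM in the 2 controls, so the targeted transcript went against the labels there, although the difference did not pass (log2 change 1.03, adjusted p = 0.767 in limma). Of 8768 autosomal genes, 19 passed (0.217%), 11 of them higher. In limma the count was 4, 8 and 0 without labelled knockout replicate 1, 2 or 3, with 1201 genes at an unadjusted p under 0.05 where it was 0. Leaving out 1 of the 2 controls leaves no spread among controls, so no count is given for those fits. The fit of all screen libraries called 3399 genes in batch 7 and 2738 in batch 8. Trophectoderm and extraembryonic ectoderm markers summed to 2479 to 2675 TPM in the libraries labelled knockout and 5054 to 6511 TPM in their controls, far above batch 8. The share of the library taken by the 10 most abundant genes was 34.8 to 36.6% in the libraries labelled knockout and 24.1 to 27.1% in their controls. In batch 8 it was 6.74 to 7.05% in the knockout and 8.17 to 8.45% in the controls. The batches also differ in the stage in their titles, and batch, stage and tissue content cannot be told apart.

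The difference between the 2 knockout effects was tested for each gene, and 651 of 11466 autosomal genes passed (5.68%), 420 of them more positive in batch 8 and 231 more negative, or 210 and 271 with quantile normalization. Without knockout replicate 1, 2 or 3 of batch 8, 300, 242 and 381 passed. Of the 24 genes with the largest changes in batch 8, 14 passed, 5 rises and 9 falls, a description since these genes were chosen for their change in batch 8. Dazl measured 37.4, 8.70 and 35.3 TPM in the libraries labelled knockout of batch 7 against 0.0637 and 8.17 TPM in their controls, and the effects differed by -7.53 on the log2 scale (adjusted p = 0.0053). Morc1 measured 38.4, 31.1 and 53.7 TPM in the labelled knockout against 3.30 and 6.85 TPM in its controls there (difference -6.99, adjusted p = 0.00093). Both germline genes were thus lower in the batch 8 knockout and numerically higher in the libraries labelled knockout of batch 7. H2-D1 measured 18.5, 9.44 and 40.7 TPM in the labelled knockout against 27.8 and 37.0 TPM in its controls (difference -3.82, adjusted p = 0.013). Dnmt3l, at 364, 352 and 524 TPM in the labelled knockout against 122 and 119 TPM in its controls, differed by -4.03 (adjusted p = 0.00033), and Dppa2, at 142, 90.2 and 64.7 TPM in the labelled knockout against 58.2 and 34.6 TPM in its controls, by -3.49 (adjusted p = 0.005). For Fgf8, at 8.57, 0 and 0 TPM in the labelled knockout against 0 and 0 TPM in its controls, and Nanog, at 7.26, 2.37 and 23.8 TPM in the labelled knockout against 0.921 and 0.394 TPM in its controls, the difference did not pass (adjusted p = 0.29 and 0.61). Of 7860 genes tested in both batches, 692 rose and 1018 fell in batch 8; 1 of these rises, Snurf, and 2 of these falls, Krt18 and Slc25a4, passed in the same direction in batch 7. In the opposite direction, 1 of these rises, Gsto1, fell in batch 7, and 5 of these falls, Dnmt3l, Dppa5a, Hmga1b, Hspb1 and Uchl1, rose there. These genes are named because they are so few, after their values were seen, and Snurf shares its transcript with Snrpn, which makes its level uncertain.

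**Figure D5:**
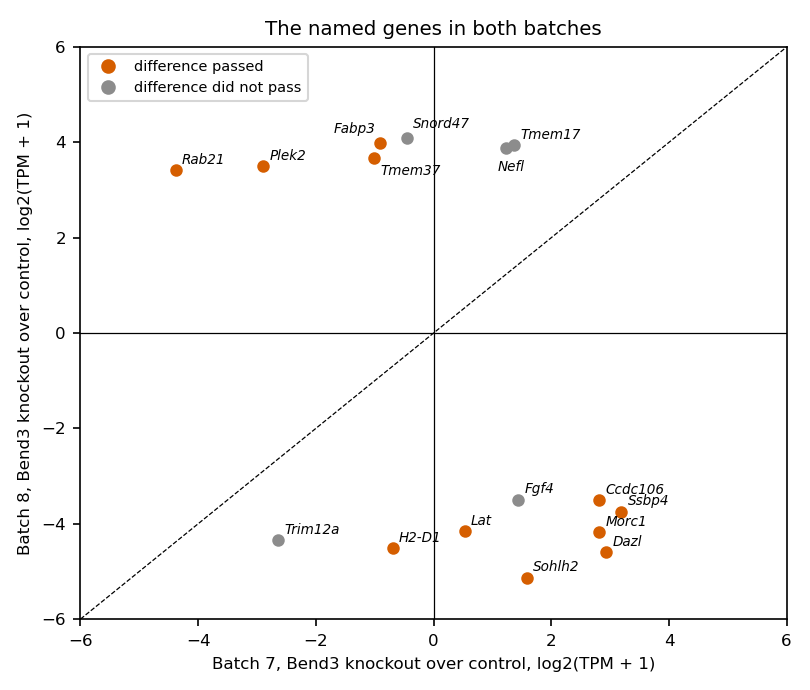
Log2 change, knockout over control on log2(TPM + 1), in batch 8 (vertical) against batch 7 (horizontal) for the 16 of the 24 largest changes that were tested in both, coloured by whether the difference between batches passed; the dashed line marks equal change. The signs match for 2 of 7 rises and 2 of 9 falls.

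The Suz12 knockout of batch 2, a core PRC2 subunit with its own controls, was set beside Bend3 because the proteins are known to work together. Suz12 measured 4.02, 5.49 and 3.98 TPM in that knockout against 31.5, 26.0 and 19.1 TPM in its controls, and 2745 of 10595 autosomal genes passed (25.9%), 1766 higher and 979 lower, or 1224 and 1311 with quantile normalization. The controls of batch 2 are among those with a higher sum of trophectoderm and extraembryonic ectoderm markers. The part of that in the comparison was not tested. Of 8965 genes tested in both, 14.98% rose and 9.46% fell without Suz12. Of the 775 that rose in the Bend3 knockout of batch 8, 162 (20.9%, or 12.1% of the Suz12 rises) also rose without Suz12, while 141 (18.2%) fell. Of the 1056 that fell in the Bend3 knockout, 149 (14.1%, or 17.6% of the Suz12 falls) also fell without Suz12 and 165 (15.6%) rose. Whether these shares differ from those over all genes was not tested. The 2 knockouts moved H2-D1 in opposite directions, with 263 TPM in the Suz12 knockout and 80.2 TPM in its controls, and Sohlh2 too, with 19.8 TPM in the Suz12 knockout and 2.31 TPM in its controls. In the Bend3 knockout of batch 8, Suz12 did not pass (log2 change 0.33, adjusted p = 0.69).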

How the data were processed

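The authors deposited 1 table of TPM per gene for the screen, made from polyadenylated RNA. HISAT2 2.2.1, StringTie 2.2.1 and Cufflinks with mm10 are named per the submitters' processing notes, which give them no role or order. Counts were not used here, so depth and counting error are unknown. Of 25006 symbols, 24939 were placed on a chromosome with GENCODE vM21 (24180) and RefSeq GRCm38.p6.

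Genes had to reach 1 TPM in a number of libraries equal to the size of the smaller group (10053 in batch 8, of which 369 on X or Y and 7 not on a numbered chromosome). Their log2(TPM + 1) values were fitted in R 4.3.3 by limma 3.58.1 (eBayes with trend, two-sided), and p-values were adjusted by Benjamini-Hochberg over all of them at 0.05. Each comparison was fitted on its own libraries, and the difference between batches as an interaction. The fit was tested on simulated data. Figures used Python 3.11.15 and matplotlib 3.10.9.

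Named genes were Bend3; the 12 largest rises and 12 largest falls that passed with groups apart and a mean of 5 TPM or more in the higher group, without clones, predicted genes, pseudogenes and microRNA hosts; and members of gene lists. The comparison, lists and rules were chosen with earlier results of these data known. The lists were naive, core, formative and gastrulation genes, Nodal signalling, Polycomb targets, Hox, BEN domain, PRC2, PRC1, NuRD, H3K4, DNA methylation, heterochromatin, ribosome biogenesis, CDK inhibitors, p53, germline, 2-cell (1 of 15 tested, Eif4e3, which did not pass), imprinted, mitosis, glycolysis, ATF4 and immediate early genes, and markers of 5 cell sources. The alternatives were another pseudocount (0.1), no filter, a minimum of 5 TPM, quantile normalization, a fit of all screen libraries, weights per library, each library left out, and a block for the replicate number.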

Additional observations from a re-analysis of the deposited data

Results flagged for a closer look

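For 14 of the 24 genes with the largest changes in batch 8, the knockout effect differed between batch 8 and batch 7 in a test of the difference itself, adjusted over all genes. These genes were chosen for the size of the batch 8 change, which is part of the difference, so their number is a description and no support for a difference between batches. Values are batch 8 minus batch 7 on log2(TPM + 1). Among the falls of batch 8, the germline genes differed by -7.53 for Dazl, -6.99 for Morc1, -6.72 for Sohlh2 and -3.93 for Stra8. The other falls that differed were Ssbp4 by -6.93, Ccdc106 by -6.32, Lat by -4.69, Nsg1 by -4.45 and H2-D1 by -3.82. Among the rises, Rab21 differed by 7.80, Plek2 by 6.39, Fabp3 by 4.90, Tmem37 by 4.67 and Mgst1 by 3.86. Stra8, Mgst1 and Nsg1 were at 0 in all 5 libraries of batch 7, so their differences only restate the changes of batch 8 alone. Fabp3 and Tmem37 were abundant in batch 7, where the sum of trophectoderm and extraembryonic ectoderm markers was also high. Fabp3 measured 919, 1000.5 and 799 TPM in the libraries labelled knockout there against 1794 and 1616 TPM in the controls.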

How the results depend on the processing

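The count of genes in batch 8 ran from 634 to 2240 when 1 library was left out, and was 634 to 978 without a knockout library. It was 0 with the knockout libraries averaged to 1, an alternative added after seeing the data, as were the list counts without each library. It stayed within 1.5 times the reported count under the other alternatives; quantile normalization gave 892 rises and 935 falls, and the fit of all screen libraries 1435 and 1303. In batch 7 the count was 0 with no filter (1106 at an unadjusted p under 0.05) and 36 with library weights. It was 3399 in the fit of all screen libraries (929 higher) and 0 to 8 without 1 library labelled knockout. The difference between batches gave 3556 genes in the fit of all screen libraries and 242 to 928 without 1 library; quantile normalization turned its split to 210 higher and 271 lower, against 420 and 231. In the Suz12 comparison quantile normalization gave 1224 rises and 1311 falls, against 1766 and 979. With the replicate number as a block, batch 8 gave 1692 genes, batch 7 gave 144 and the difference 341; same-numbered libraries of batch 8 deviated with correlations of 0.0017 to 0.0099, so the numbers did not pair them. Of 98 named genes, none that had passed changed sign under any alternative; 25 lost their call without knockout replicate 2, 16 without replicate 1 and 14 without replicate 3. The causes were not tested.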

Other observations

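Some genes described nowhere above were chosen after their values were seen. The class I genes did not move together with their shared light chain: H2-K1 measured 11.9, 11.7 and 14.2 TPM in the knockout against 129, 215 and 75.7 TPM in the controls (log2 change -3.25, SE 0.36, adjusted p = 0.001), while B2m, the light chain, measured 61.7, 45.3 and 43.4 TPM in the knockout against 16.7, 8.12 and 2.22 TPM in the controls (log2 change 2.65, SE 0.57, adjusted p = 0.013). The fall of H2-K1 passed in every fit without 1 library, whereas B2m passed in 3 of 6 such fits (adjusted p up to 0.086). Psmb8, an immunoproteasome subunit encoded in the same gene complex, averaged 60.2 ± 5.50 TPM in the knockout and 78.3 ± 39.9 TPM in the controls and did not pass (adjusted p = 0.61). Controls of the other batches averaged 25.1 to 56.4 TPM of H2-K1, above the knockout and below the controls of batch 8. H2-K1 and H2-D1 are closely related, so reads can be split between them.

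Near-identical copies of 2 abundant genes also differed. Hmga1, a chromatin protein of embryonic cells, and its copy Hmga1b summed to 253, 228 and 239 TPM in the knockout against 2492, 2203 and 2443 TPM in the controls, while the controls of the other batches averaged 82.4 to 817 TPM. Rps18, a ribosomal protein gene, measured 329.6, 352 and 401 TPM in the knockout against 1755, 1941 and 1726 TPM in the controls, and its copy Rps18-ps4 measured 389, 451 and 557 TPM in the knockout against 6.61, 10.1 and 7.56 TPM in the controls, in the opposite direction. Controls of the other batches averaged 119 to 352 TPM of the copy, below the knockout and above the controls of batch 8. The sum of both was 719, 803 and 958 TPM in the knockout against 1762, 1951 and 1734 TPM in the controls. Controls of the other batches averaged 1155 to 3517 TPM of the sum, above the knockout, and the controls of batch 8 lay within that range. How the counting assigned reads between copies was not tested.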
